A study of Mus musculus with 7 samples.

Results

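Alveolar type 2 (AT2) nuclei were chosen by their counts of 7 genes, namely Sftpc, Sftpa1, Sftpd, Slc34a2, Lamp3, Abca3 and Hc. A nucleus was taken when at least 3 of the 7 genes had a count and together they made up at least 0.25% of its transcripts. Nuclei with under 300 transcripts, over 10% mitochondrial counts or over 12000 genes were left out. Of the 38254 nuclei kept from 38353 in the files, 200 met the rule. Small cell lung cancer tissue of 4 male mice had been frozen fresh, and its nuclei were isolated, fixed and barcoded by split-pool indexing (Parse Evercode). The 2 genotypes compared had 2 animals each. RP mice (RP1 and RP2) carried Rb1 fl/fl and Trp53 fl/fl, and RPC mice (RPC1 and RPC2) carried both of these and a Casp8 allele that the labels write as Casp8-/- and the methods of the study treat as conditional. Both genotypes inhaled an adenovirus with Cre recombinase under the CMV promoter, which acts in any infected cell, and the files do not record which AT2 nuclei had recombined. Per the methods, the mice were young adults at inhalation and the tumors were taken at endpoint. All 7 libraries pooled nuclei of all 4 animals, the first barcoding well marked the animal, and 0 barcodes were shared between animals.

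AT2 cells line the alveoli with AT1 cells, make and recycle pulmonary surfactant, and act as progenitors of the alveolar epithelium after injury. Surfactant lipid is assembled with the proteins SP-B and SP-C in lamellar bodies, storage organelles that fuse with the cell surface. Of the genes used for selection, Sftpc encodes the hydrophobic surfactant protein SP-C, and Sftpa1 and Sftpd encode the collectins SP-A and SP-D. Abca3 pumps phospholipid into lamellar bodies, Lamp3 is a membrane protein of these organelles, Slc34a2 is a sodium-phosphate cotransporter, and Hc encodes complement C5.

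Promoter sequences are shown for 2 surfactant genes because their promoters hold the letters CTCAAG, a core that NKX2-1, a lung lineage factor, is known to bind. RefSeq sequences (GRCm38.p6) from 250 bases before to 50 bases after the start of the gene were found for 6 of 8 genes, the 7 selecting genes and Sftpb, and 2 of the 6 held the letters on either strand. The same letters were in 15.9% of all 32851 promoters of this length. Capitals mark the letters in the promoter of Sftpa1 at chr14:41131538-41131837 (plus strand), where they begin 166 bases upstream of the start, and in that of Sftpb at chr6:72304360-72304659 (plus strand), where they begin 100 and 15 bases upstream. A match describes the sequence and is not a measured binding site.
Sftpa1: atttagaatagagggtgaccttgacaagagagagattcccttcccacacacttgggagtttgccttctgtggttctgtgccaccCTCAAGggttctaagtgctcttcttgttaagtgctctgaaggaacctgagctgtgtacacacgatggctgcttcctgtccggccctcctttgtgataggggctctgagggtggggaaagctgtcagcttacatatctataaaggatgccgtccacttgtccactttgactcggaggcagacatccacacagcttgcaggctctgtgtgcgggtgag
Sftpb: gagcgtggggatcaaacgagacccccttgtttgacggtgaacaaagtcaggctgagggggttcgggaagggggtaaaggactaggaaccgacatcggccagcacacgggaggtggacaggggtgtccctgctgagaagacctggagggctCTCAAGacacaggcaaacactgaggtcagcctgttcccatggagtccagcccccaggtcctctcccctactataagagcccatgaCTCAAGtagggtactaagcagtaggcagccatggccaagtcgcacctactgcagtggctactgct
In the AT2 nuclei, Nkx2-1 was at 167 and 95.7 CPM (counts scaled to a common total of transcripts) in RP1 and RP2. In RPC1 and RPC2 it was at 99.2 and 162 CPM, against 49.0 to 69.1 CPM in the other nuclei of the 4 animals. The alveolar type 1 nuclei described below held 171 and 167 CPM in RP1 and RP2 and 85.3 and 155 CPM in RPC1 and RPC2. The AT2 level was thus 0.574 to 1.16 times theirs.

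AT2 nuclei were few in every tumor. There were 18 among 8363 kept nuclei of RP1 and 88 among 8874 of RP2, or 0.215% (exact Clopper-Pearson 95% interval 0.128 to 0.340) and 0.992% (0.796 to 1.22). There were 31 among 10853 of RPC1 and 63 among 10164 of RPC2, or 0.286% (0.194 to 0.405) and 0.620% (0.477 to 0.792). The RP tumors held both the lowest and the highest share, so the genotypes overlapped. RP animals had a mean share of 0.603% ± 0.549 (SD, n = 2) and RPC animals one of 0.453% ± 0.236 (SD, n = 2), a difference of -0.151 percentage points (two-sided exact permutation test, p = 1, where 0.333 is the smallest p that 2 animals against 2 allow). Without RP2 the difference was 0.238 and without RPC1 it was 0.0164, so its sign rested on single animals. The intervals cover counting error only.

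**Figure D1:**
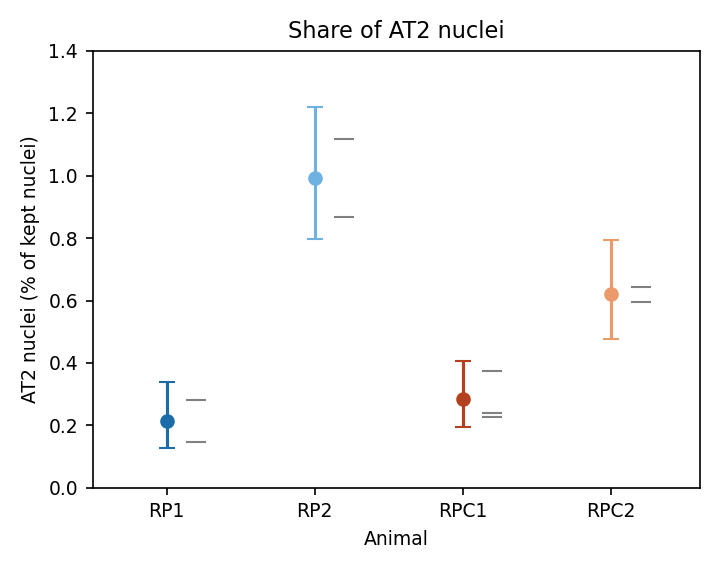
Share of kept nuclei (percent, vertical axis) chosen as AT2 in each of the 4 animals, with exact 95% intervals for counting error as bars and the barcoding wells of each animal as grey dashes. The 2 RP animals, at 0.215% and 0.992%, lie outside the 2 RPC animals, at 0.286% and 0.620%.

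The animals were each spread over 2 or 3 barcoding wells. The wells of RP1 held 0.146% and 0.281% AT2 nuclei, and those of RP2 held 1.12% and 0.868%. The wells of RPC1 held 0.373%, 0.228% and 0.240%, and those of RPC2 held 0.643% and 0.594%. The order of the animals was thus kept by all wells of RP2 and RPC2, while the wells of RP1 and RPC1 overlapped. Nuclei with at least 1000 transcripts were also thinned to 1000, and the shallower ones were left out. This left 7145, 7666, 10558 and 9441 nuclei of RP1, RP2, RPC1 and RPC2, of which 143 met the rule. The shares among these deeper nuclei were 0.196%, 0.861%, 0.199% and 0.445%.

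AT2 nuclei were of ordinary depth. Their median number of transcripts was 2878.5 and 1979.5 in RP1 and RP2 and 4070 and 2557 in RPC1 and RPC2, against 2251, 2224, 3390.5 and 2768 in all other kept nuclei. Only 3 AT2 nuclei, 2 of RP2 and 1 of RPC2, exceeded 4 times the median of their animal. Summed over AT2 nuclei, the transcripts were 53765 and 271781 in the RP animals and 161235 and 197529 in the RPC animals, so 1 transcript stood for 18.6 CPM in RP1 and 3.68 CPM in RP2. The ribosomal transcript Rn18s-rs5 took 6.72% and 6.33% of AT2 transcripts in the RP animals and 2.02% and 4.24% in the RPC animals, and it was also higher in the other nuclei of the RP animals (9.99% and 8.51% against 3.09% and 5.35%).

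The share of transcripts from the 7 selecting genes had medians of 0.524%, 0.934%, 0.552% and 0.506% in RP1, RP2, RPC1 and RPC2, and no nucleus exceeded 2.45%. The lowest AT2 nuclei stood at 0.256%, 0.259%, 0.293% and 0.251%. The highest nuclei with at least 3 of the genes that were not taken stood at 0.211%, 0.249%, 0.249% and 0.247%. Nuclei just inside and just outside the rule therefore lay close together in RP2 and RPC2. Among the 200 nuclei, 27 showed exactly 3 of the genes, 31 showed 4, 39 showed 5, 63 showed 6 and 40 showed all 7. Slc34a2 was seen in 180 of the nuclei, Abca3 in 168, Sftpc in 166, Sftpd in 148, Hc in 140, Lamp3 in 137 and Sftpa1 in 119.

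**Figure D2:**
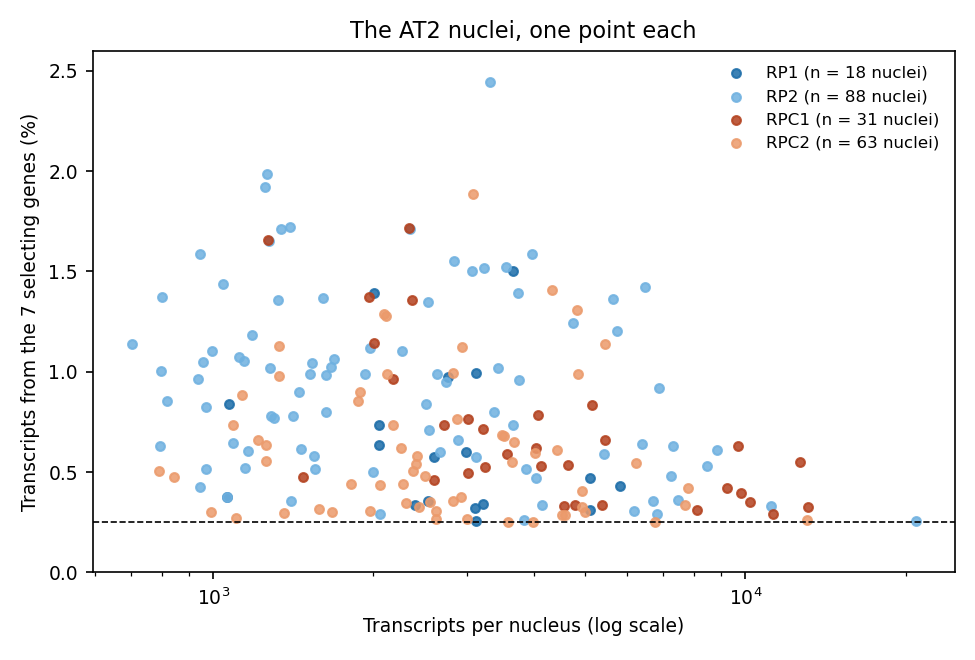
Transcripts per AT2 nucleus (horizontal, log axis) against the percent of them from the 7 selecting genes (vertical), one point per nucleus and one color per animal. The dashed line is the 0.25% of the rule, and the animals' medians lie between 0.506% and 0.934%.

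The label held against genes outside the rule. Of 23 further AT2 genes, at least 1 was seen in all 200 nuclei and at least 3 in 194. At least 3 were also seen in 11.7%, 15.3%, 25.7% and 16.3% of the other nuclei of RP1, RP2, RPC1 and RPC2. Sftpb, which encodes SP-B, was at 3906 and 3863 CPM in the RP animals and at 4769 and 4582 CPM in the RPC animals. In all other kept nuclei it was at 12.3, 36.1, 56.7 and 39.5 CPM. The AT2 level was thus 84.2 to 318 times that of the other nuclei in each animal. Because the rule chose the nuclei by this contrast, these values and those below against the other nuclei are descriptions with no test.

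The selecting genes themselves were far above the other nuclei, as the rule required. Sftpc was at 1042, 1726, 837 and 1397 CPM in the AT2 nuclei of RP1, RP2, RPC1 and RPC2, and at 5.03, 13.1, 4.89 and 12.3 CPM in the other nuclei. Slc34a2 was at 1618, 2149, 1160 and 1200 CPM, and Hc at 1321, 1667, 1030 and 633 CPM, while neither passed 11.1 CPM in the other nuclei of any animal. Lamp3 was at 279, 504, 564 and 521 CPM, against at most 4.27 CPM. Both collectins also stood far apart, Sftpa1 at 223 to 596 CPM and Sftpd at 465 to 724 CPM, against at most 6.63 and 12.1 CPM. Abca3 separated least, since the other nuclei held 86.5 to 111 CPM of it and the AT2 level of 719 to 1116 CPM was 6.48 to 12.9 times that.

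Counts of surfactant genes were also found, from a source not tested, in the other nuclei. Of these, 33, 114, 166 and 168 in RP1, RP2, RPC1 and RPC2 had at least 3 selecting genes but missed the 0.25% share. After thinning to 1000 transcripts, which left out 12 AT2 nuclei of RP2 and 3 of RPC2, Sftpc was seen in 33.3%, 72.4%, 51.6% and 68.3% of AT2 nuclei of RP1, RP2, RPC1 and RPC2. It was seen in 0.48% to 1.46% of the other nuclei of the same animals. Without thinning, Sftpc was in 55.6% to 87.5% of AT2 nuclei and in 1.59% to 5.23% of the others. Thinned Sftpb was in 83.3% to 96.8% of AT2 nuclei and in 0.80% to 2.83% of the others, and in the alveolar type 1 nuclei described below it was in 0% to 8.70%.

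Of 2276 genes with a mean of at least 100 CPM over the AT2 and other sums of the 4 animals, 9.97% were over 2-fold higher in AT2 nuclei in all 4 animals and 10.2% were over 2-fold lower. Among the listed AT2 genes outside the rule that reached this level, 11 of 12 were over 2-fold higher in every animal. The remaining gene was Fgfr2, a growth factor receptor, at 1247 to 1395 CPM against 737 to 871 CPM. The summed level of all 23 listed genes was 850% to 1047% of that in the other nuclei. Il33, which encodes an alarmin cytokine, was at 93.0, 500, 180 and 263 CPM in AT2 nuclei and at no more than 1.96 CPM in the others. Etv5, a transcription factor of AT2 identity, was at 260, 416, 254 and 258 CPM against at most 10.8 CPM. Dram1, a regulator of autophagy, was at 595, 828, 1061 and 1083 CPM against at most 17.7 CPM. Etv5 and Dram1 were spread over 8 and 16 of the 18 AT2 nuclei of RP1, whereas all 5 Il33 counts of RP1 were in 1 nucleus. Il33 was seen in 44, 11 and 18 AT2 nuclei of RP2, RPC1 and RPC2.

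**Figure D3:**
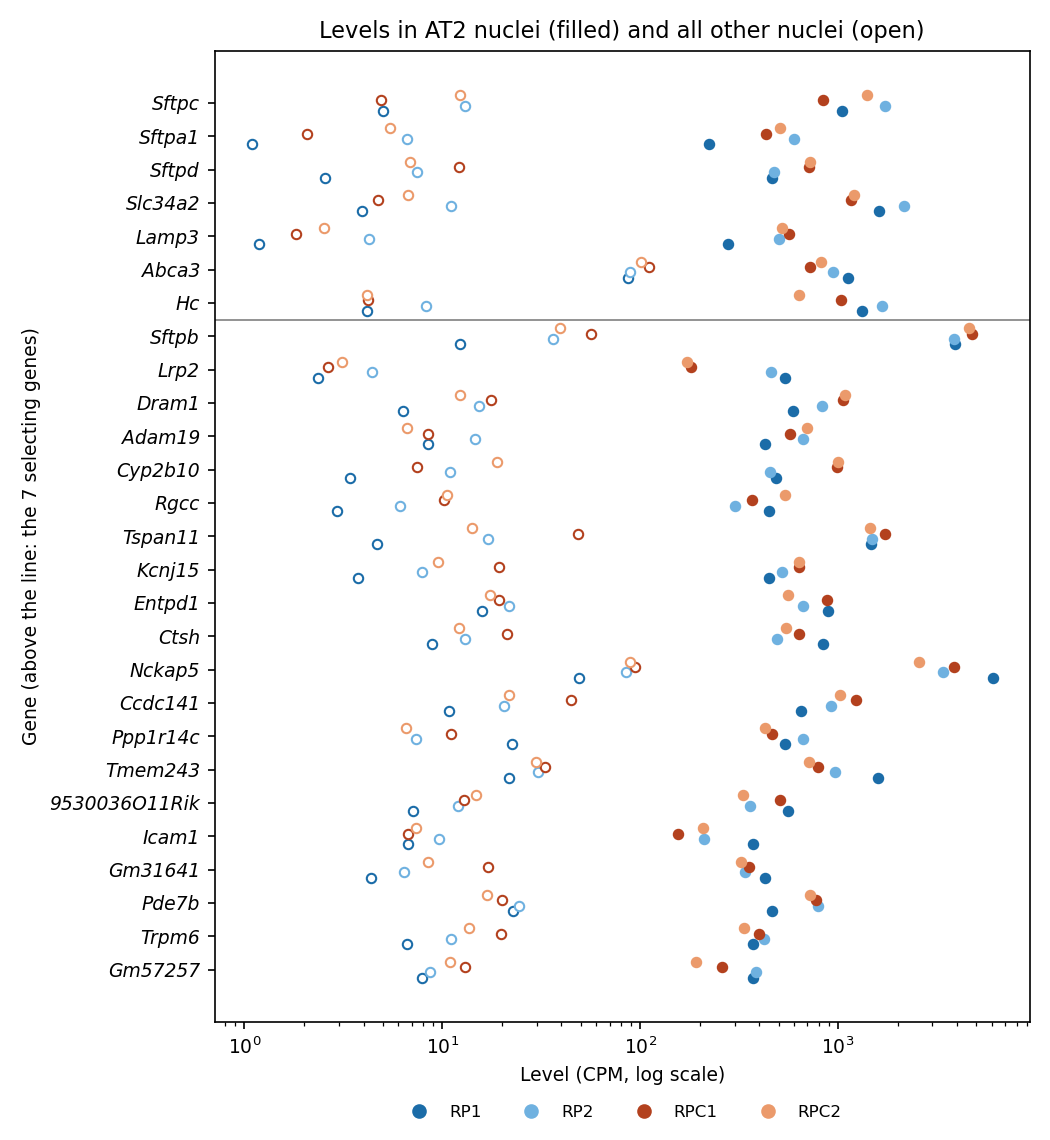
Level (CPM, log axis) of the 7 selecting genes and of the 20 genes outside the rule with the largest ratio in their least different animal, in AT2 nuclei (filled) and all other kept nuclei (open) of each animal. For Sftpb, the leading gene outside the rule, the filled points lie at 3863 to 4769 CPM and the open points at 12.3 to 56.7 CPM.

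The 20 genes outside the rule with the largest ratio in their least different animal ran from Sftpb, at 84.2 times, to Gm57257, at 17.7 times. They held Ctsh, a cathepsin that processes surfactant proteins, at 837, 489, 633 and 547 CPM against 8.85 to 21.3 CPM. Entpd1, an enzyme that breaks down extracellular ATP, was at 893, 666, 881 and 557 CPM against 15.9 to 21.8 CPM. Lrp2, an endocytic receptor, was at 539, 460, 180 and 172 CPM against 2.36 to 4.41 CPM. The list also held Adam19, a metalloprotease, at 428 to 694 CPM, the potassium channel gene Kcnj15 at 446 to 638 CPM and the magnesium channel gene Trpm6 at 334 to 423 CPM. Among its enzymes were Cyp2b10, a cytochrome P450, at 453 to 1002 CPM, and Pde7b, a phosphodiesterase, at 465 to 787 CPM.

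Lamellar body and vesicle traffic genes were higher too. Of 7 such genes at this level, 5 were over 2-fold higher in all animals. The summed level of all 12 listed was 347% to 403% of that in the other nuclei. Npc2, which moves cholesterol out of lysosomes, was at 428, 405, 608 and 359 CPM against 18.9 to 30.0 CPM. The phospholipid flippases Atp11a and Atp8a1 were at 1600 to 2120 CPM and at 1724 to 2207 CPM, against 213 to 320 CPM and 675 to 827 CPM. Adgrf5, an adhesion receptor that limits the surfactant pool, was at 372 to 602 CPM against 22.5 to 44.0 CPM.

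Lipid synthesis genes were higher in part, 3 of 6 at this level. The sum of all 21 listed was 197% to 270% of that in the other nuclei. Scd1, which desaturates fatty acids, was at 465, 423, 273 and 370 CPM against 14.8 to 58.3 CPM. Gpam, the first enzyme of glycerolipid synthesis, was at 335, 379, 254 and 177 CPM against 12.6 to 20.4 CPM. Me1, which supplies NADPH, was the other. Fasn, fatty acid synthase, fell just short of the 2-fold line in 1 animal, at 1.99 times in RPC2. Cd74, the invariant chain of MHC class II, was at 335, 77.3, 105 and 81.0 CPM in AT2 nuclei and at 6.64 to 14.9 CPM in the others. The summed MHC class II level was 453% to 1317% of that in the other nuclei, highest in RP1, where it rested on 39 counts.

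Tumor genes were lower. The 15 listed neuroendocrine genes summed to 16.9%, 35.6%, 36.0% and 41.8% of the level in the other nuclei in RP1, RP2, RPC1 and RPC2. Of the 7 that reached a mean of 100 CPM, 4 were over 2-fold lower in all animals. The 4 were Chga, which encodes chromogranin A, the synaptic genes Snap25 and Syt1, and Ddc, which encodes an enzyme of amine synthesis. The 25 listed proliferation genes summed to 30.8% to 46.6%, with 4 of the 11 at that level lower (Mki67, Cenpf, Knl1 and Tpx2). The other nuclei are taken to be mostly tumor nuclei, and 82.7% to 94.7% of them showed at least 3 of 15 neuroendocrine genes. That mark alone does not identify a tumor nucleus, since 77 of the 200 AT2 nuclei also met it.

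**Figure D4:**
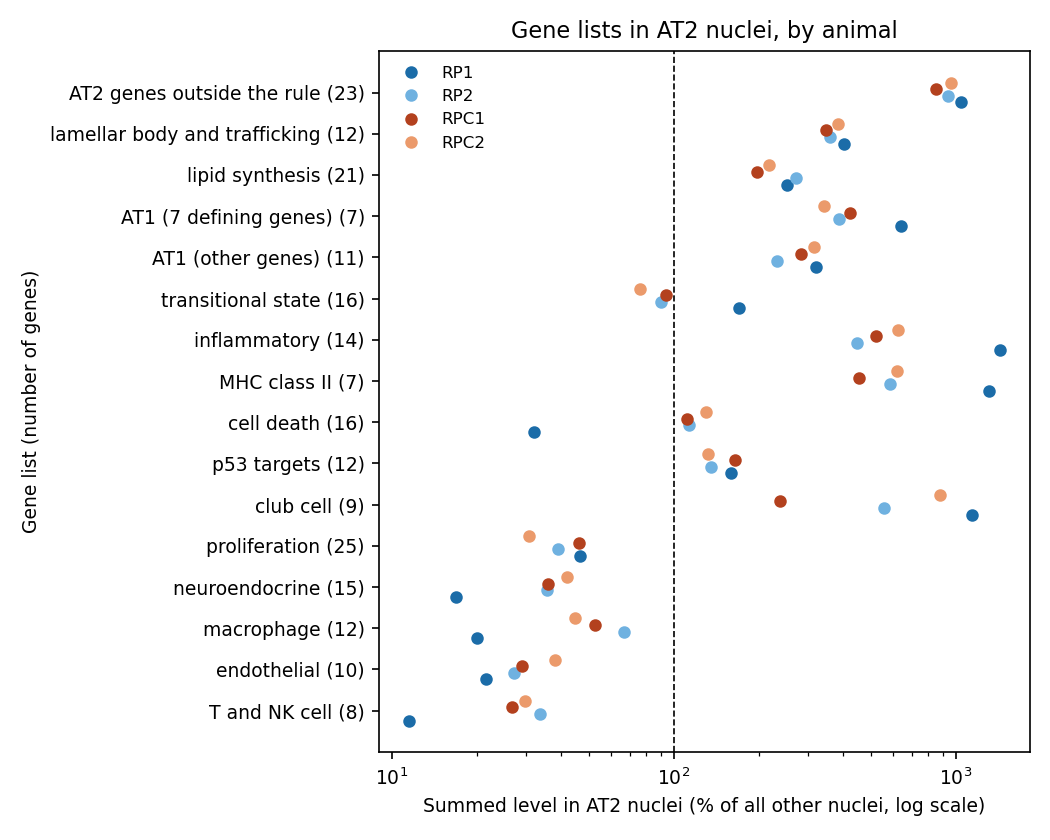
Summed level of each gene list in AT2 nuclei as a percent of that in all other kept nuclei (log axis), one point per animal. The listed AT2 genes outside the rule lie at 850% to 1047% and the neuroendocrine genes at 16.9% to 41.8%.

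Neuroendocrine transcripts were nevertheless counted in AT2 nuclei. At least 3 of the 15 genes were seen in 77 of the 200 nuclei. These were 5 of 18 and 24 of 88 in the RP animals, and 16 of 31 and 32 of 63 in the RPC animals. At least 3 of 25 proliferation genes were seen in 99 nuclei. Thinned to 1000 transcripts, Calca, which encodes a neuropeptide of the tumor cells, was in 11.1%, 17.1%, 22.6% and 41.7% of AT2 nuclei, and in 44.7%, 40.4%, 72.4% and 68.3% of the others. Without thinning, Calca was in 16.7% to 63.5% of AT2 nuclei and 62.2% to 90.2% of the others. No doublet caller was run here, and the part of free RNA or joined nuclei in these counts was not tested.

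Few AT2 nuclei held several macrophage or endothelial genes. At least 3 of 12 macrophage genes were seen in 1 nucleus, and at least 3 of 10 endothelial genes in 1. At least 1 macrophage gene was seen in 19 AT2 nuclei and at least 1 endothelial gene in 34. Among the other nuclei of each animal, 1.49% to 2.81% showed at least 3 macrophage genes and 1.99% to 4.86% at least 3 endothelial genes. Because both marks were uncommon there too, the low counts barely set AT2 nuclei apart. Marco and Siglecf, both of alveolar macrophages, had no count in AT2 nuclei, and neither did any of 5 neutrophil or 4 mesothelial genes. The neutrophil and mesothelial lists summed to at most 4.07 and 4.58 CPM in the other nuclei, so their absence says little. At least 3 of 9 club genes were seen in 18 nuclei, of which 1 and 7 were from the RP animals and 1 and 9 from the RPC animals. At least 3 of the 7 AT1 rule genes were seen in 15 nuclei, and at least 3 of 11 other AT1 genes in 8 and 36 nuclei of the RP animals and 22 and 31 of the RPC animals. Cbr2, a carbonyl reductase on the club list, was at 353, 534, 354 and 881 CPM against 8.85 to 34.0 CPM in the other nuclei, and thinned it was in 33.3% to 39.5% of AT2 nuclei and 0.45% to 1.83% of the others (33.3% to 60.3% and 1.08% to 5.17% unthinned). Scgb1a1, the club cell secretoglobin, was less even, in 11.1%, 5.26%, 3.23% and 21.7% of thinned AT2 nuclei against 0.76% to 5.74% of the others (6.45% to 31.7% and 2.06% to 15.9% unthinned).

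AT2 nuclei were set beside 182 alveolar type 1 (AT1) nuclei, the flat cells of gas exchange, chosen by the same form of rule on Ager, Hopx, Rtkn2, Aqp5, Pdpn, Akap5 and Col4a3. The RP animals had 22 and 39 of them and the RPC animals 24 and 97, and 6 AT2 nuclei also met the AT1 rule and were counted as AT2. Of 2199 genes with a mean of at least 100 CPM over both, 4.32% were over 2-fold higher in AT2 nuclei in all 4 animals and 3.96% were lower. Among the listed AT2 genes outside the rule, 10 of 14 were higher, and all 8 AT1 genes outside the AT1 rule were lower. Of 7 lipid synthesis genes 3 (Acaca, Fasn and Scd1) and of 7 lamellar body genes 1 (Npc2) were higher, as were both club genes at this level, Cbr2 and Scgb1a1. These values too are descriptions.

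The comparison split the 20 leading genes. Of them, 10 (Adam19, Pde7b, Dram1, Lrp2, Tspan11, Ppp1r14c, Entpd1, Sftpb, Kcnj15 and Tmem243) were over 2-fold higher in AT2 than in AT1 nuclei in every animal. Tspan11, a tetraspanin, was at 1469, 1483, 1724 and 1458 CPM in AT2 nuclei and at 21.4, 26.9, 410 and 9.83 CPM in AT1 nuclei. The other 10 were not. Nckap5 was at 6045, 3381, 3870 and 2577 CPM in AT2 nuclei and at 5755, 4764, 4897 and 4069 CPM in AT1 nuclei. The pool of all other kept nuclei, taken as mostly tumor and including the AT1 nuclei, held 49.0 to 94.0 CPM. Other normal cell types were not compared separately. Icam1, an adhesion molecule, was at 155 to 372 CPM in AT2 and 256 to 323 CPM in AT1 nuclei. Col4a3, a basement membrane collagen gene of the AT1 rule, was at 707, 180, 378 and 365 CPM in AT2 nuclei, above the 8.69 to 24.5 CPM of the other nuclei and below the 1726 to 2619 CPM of AT1 nuclei. Ager, an AT1 receptor, was in 3.95% to 9.68% of thinned AT2 nuclei and 21.7% to 38.3% of AT1 nuclei (11.1% to 19.4% and 66.7% to 74.4% unthinned), whose median transcripts were 2904 to 3699.5.

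The next question was which genes of AT2 nuclei differed between RPC and RP tumors. Counts were summed per animal, and edgeR's quasi-likelihood test was run on 4095 genes, of which 0.0488% passed an adjusted p of 0.05. Both genes that passed were lower in RPC. Before adjustment, 349 genes had a p below 0.05, and DESeq2 called 1 gene. The edgeR p-values of this comparison rest on the spread between 2 animals of each genotype, much of it borrowed from other genes (prior degrees of freedom 10.1).

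Lars2 (chr9:123195952-123291731, plus strand, GRCm39), which encodes the mitochondrial leucyl-tRNA synthetase, was at 14396 and 7296 CPM in AT2 nuclei of RP1 and RP2 and at 2158 and 2268 CPM in those of RPC1 and RPC2. Both RPC animals were below both RP animals. Lars2 fell by 2.35 on the log2 scale (SE 0.35, edgeR adjusted p = 0.0461). In the other nuclei Lars2 was at 15994 and 9800 against 3629 and 2781 CPM, and the difference did not differ detectably between AT2 and other nuclei (log2 -0.15, SE 0.51, edgeR adjusted p = 1). Rn18s-rs5 moved the same way between the genotypes, as given above, and its part in the result was not tested.

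Gm30835 (chr5:7730108-8014301, minus strand, GRCm39), a long noncoding RNA gene, had 4 and 65 counts in AT2 nuclei of RP1 and RP2 and 1 and 0 counts in RPC1 and RPC2. It was lower in RPC (edgeR adjusted p = 0.0461). The ratio of RPC to RP over all AT2 transcripts was 0.0132, with a counting interval of 0.000328 to 0.0757. In the other nuclei it was at 311 and 474 CPM in RP and 9.5 and 13 CPM in RPC. Its difference in AT2 nuclei therefore had the sign of that in the rest of each tumor.

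With selecting genes at a minimum of 0.5% of transcripts, or without nuclei holding markers of other cell types, 0 genes passed in edgeR (134 and 312 genes had a p below 0.05 before adjustment). When 1 animal was left out, 52 genes passed if it was RP1, 104 if RP2, 7 if RPC1 and 17 if RPC2. The lone animal of a genotype is then assumed to vary like the others.

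The next 3 genes by p were Acoxl, Fasn and Scarna2, and none passed. Fasn was at 577 and 386 CPM in RP and 130 and 75.9 CPM in RPC (log2 -2.23, SE 0.38, edgeR adjusted p = 0.0606). The other nuclei held 77.9 and 63.4 against 30.7 and 38.2 CPM. Acoxl, an acyl-CoA oxidase-like gene, was at 279 and 372 CPM in RP and 74.4 and 75.9 CPM in RPC (log2 -2.22, SE 0.37, edgeR adjusted p = 0.0606), with at most 1.63 CPM in the other nuclei. In RP1, 10 of the 15 Acoxl counts were in 1 nucleus. Scarna2, a small Cajal body RNA, was at 298 and 784 CPM in RP and 86.8 and 122 CPM in RPC (log2 -2.55, SE 0.43, edgeR adjusted p = 0.0606). Both RPC animals were below both RP animals for each of the 3 genes. Fasn passed in 8 and Acoxl in 7 of 13 alternative settings. After them by p came Col4a1, a basement membrane collagen gene (log2 -1.72, edgeR adjusted p = 0.144), then Lrp2, Frmpd4 and Kcnma1, the last 2 higher in RPC. Lrp2 was at 539 and 460 against 180 and 172 CPM (log2 -1.54, SE 0.31, edgeR adjusted p = 0.168). Sftpb, at 3906 and 3863 against 4769 and 4582 CPM, gave a log2 difference of 0.20 (SE 0.26, edgeR adjusted p = 0.890).

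The selecting genes were used to pick the nuclei, so their genotype values are given as a description. In log2 RPC against RP they were -0.75 for Slc34a2 (SE 0.28), -0.94 for Hc (0.30), -0.46 for Abca3 (0.27), -0.40 for Sftpc (0.34), -0.02 for Sftpa1 (0.37), 0.30 for Lamp3 (0.31) and 0.54 for Sftpd (0.27). RP2 had the highest level of Slc34a2, Hc and Sftpc of the 4 animals.

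**Figure D5:**
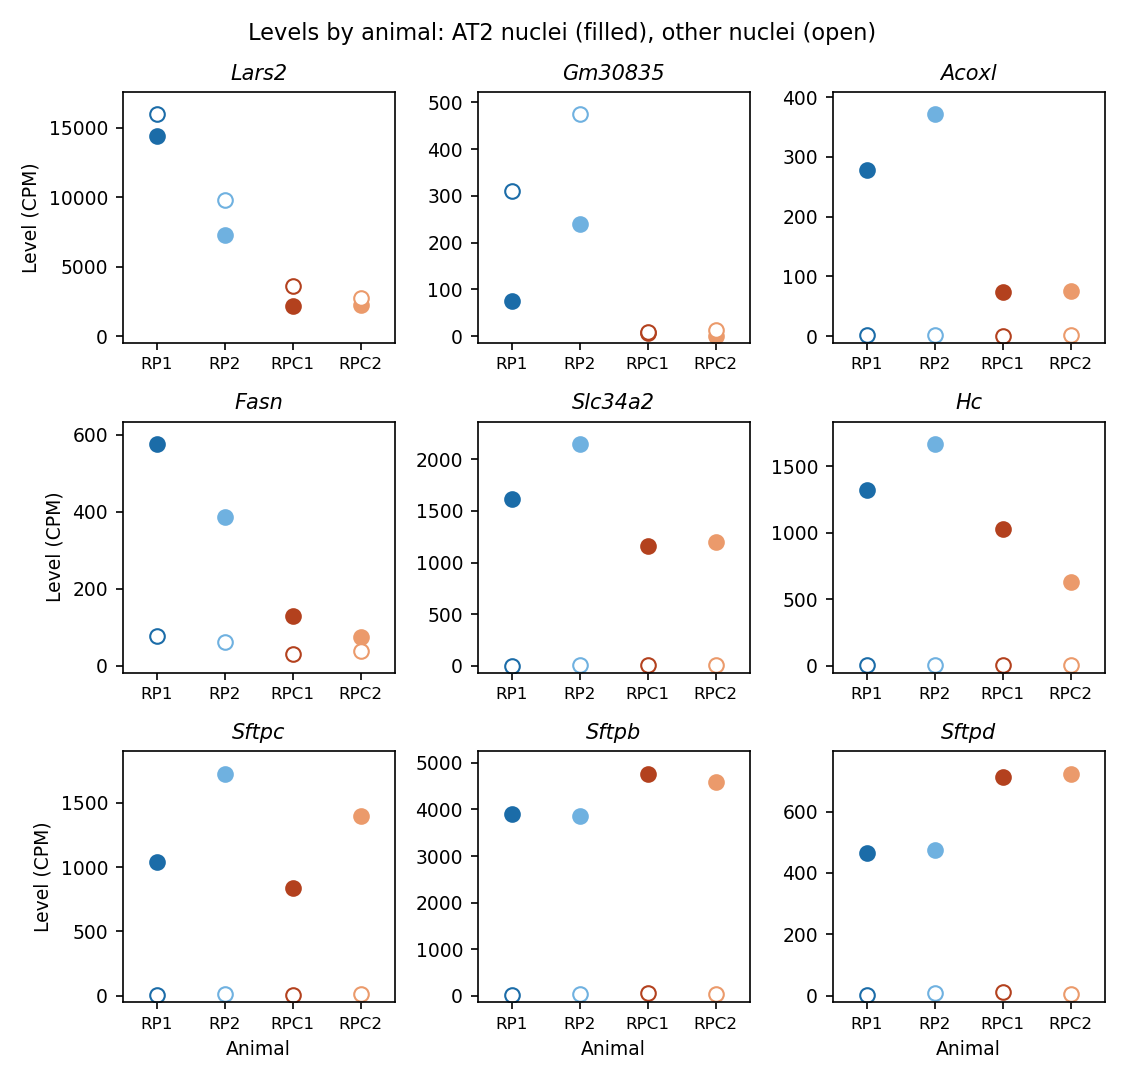
Level (CPM, linear axis) of 9 genes in AT2 nuclei (filled) and all other kept nuclei (open) of each animal, grouped by genotype. Lars2 and Gm30835 are lower in both RPC animals in both classes of nuclei, and Sftpb lies at 3863 to 4769 CPM in AT2 nuclei of both genotypes.

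Across all 4095 genes, 24.0% had both RPC animals above both RP animals and 16.8% had both below. Of the 18 AT2 genes outside the rule that could be tested, 3 were apart and higher in RPC and 6 apart and lower. Their median log2 difference was -0.58 against 0.00 for all genes. The sum of all 23 listed genes hardly differed, at a mean of 10093 CPM in RP and 9980 CPM in RPC (log2 -0.016). Of 14 lipid synthesis genes, 2 were apart and higher and 5 lower (median -0.30), and of 8 lamellar body genes, 2 and 2. None of these passed the test. Of 7 neuroendocrine genes, 5 were apart and higher in RPC and 0 lower, with a median of 0.66, and none passed. The largest, Calca, was at 167 and 250 CPM in RP and 496 and 1048 CPM in RPC (log2 1.73, SE 0.40, edgeR adjusted p = 0.289), and in the other nuclei at 732 and 656 against 1686 and 1598 CPM.

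Summed list levels were compared between the genotypes by two-sided exact permutation tests for the 13 lists that the selection did not use. In 6 lists the genotypes did not overlap, each at an exact p = 0.333 (0.722 after Benjamini-Hochberg adjustment), the smallest p possible, so no list could pass. The sum was lower in RPC for lipid synthesis, alveolar transitional and MHC class II genes, and higher for cell death, p53 target and neuroendocrine genes. Among single genes, 24.0% of the 4095 tested also did not overlap with RPC higher, and 16.8% with RPC lower. The lipid synthesis sum was 2939 and 3024 CPM in RP and 2320 and 2379 CPM in RPC. Cell death genes summed to 93.0 and 350 against 366 and 400 CPM, where RP1 rested on 5 counts. Their log2 difference of 0.79 was 0.13 without RP1 and 2.04 without RP2. For p53 target genes, where RP1 rested on 17 counts, the log2 difference of 0.23 was 0.0859 without RPC1. MHC class II genes summed to 725 and 302 against 242 and 197 CPM, a log2 difference of -1.23 that was -0.46 without RP1. Neuroendocrine genes summed to 949 and 1586 against 2258 and 2769 CPM, and in the other nuclei the means were 5033 CPM in RP and 6449 CPM in RPC. The part of tumor transcripts in AT2 nuclei in the genotype values was not tested.

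The last comparison asked whether the genotype difference of AT2 nuclei differed from that of the other nuclei. Of 18253 genes, 0.011% passed edgeR's interaction test. In this fit the spread was taken wholly from all genes together (infinite prior degrees of freedom). Its p-values therefore do not reflect a gene's own spread between animals. One was Sox2ot, a long noncoding RNA that overlaps Sox2, with 0 and 1 counts in AT2 nuclei of RP1 and RP2 and 424 and 6 in RPC1 and RPC2 (log2 6.61, edgeR adjusted p = 1.99e-09). A single RPC1 nucleus held 421 of the 424 counts. The other was Kirrel3, an adhesion gene, with 0 and 25 counts in RP and 2 and 0 in RPC (log2 -4.42, edgeR adjusted p = 0.0197). Without that one RPC1 nucleus, an alternative chosen after seeing the data, 0 genes passed in edgeR, where 318 genes had a p below 0.05 before adjustment. DESeq2 on all nuclei called 0 genes, with 134 below 0.05 before adjustment. Without RP2 the edgeR count was 52, and without RPC1 it was 0.

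The targeted genes were counted in few AT2 nuclei. Casp8, the apical protease of death receptor signaling, had 0, 12, 16 and 4 counts in RP1, RP2, RPC1 and RPC2, or 0, 44.2, 99.2 and 20.3 CPM. The other nuclei held 59.1, 62.9, 93.2 and 67.8 CPM. Trp53 had 1, 7, 3 and 4 counts and Rb1 had 5, 52, 37 and 40. Rb1 alone could be tested, with a log2 difference of 0.34 (SE 0.38, edgeR adjusted p = 0.867). Counts were per gene and do not resolve the floxed exons, so they check nothing about the genotype labels or about recombination in these nuclei.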

How the data were processed

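Per the labels and the methods of the study, the Parse pipeline of the authors mapped reads to GRCm39 and assigned them to animals, and the deposited matrices hold whole-number counts of transcripts per nucleus and gene, not normalized. The authors' own analysis used Seurat and DESeq2 on summed counts. The kept numbers of nuclei differ from those the study states in RP1, RP2 and RPC2 and are equal in RPC1.

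Counts of AT2 and of other nuclei were summed per animal, since nuclei of 1 animal are not independent, and scaled to CPM. RPC was compared with RP by edgeR's quasi-likelihood test (edgeR 4.0.16, R 4.3.3; TMM scaling, filterByExpr, Benjamini-Hochberg adjustment, adjusted p threshold 0.05), with SE taken as the log2 difference over the square root of F. The interaction fit had animal as a block. Shares and list sums were compared by exact permutation tests (scipy 1.17.1). DESeq2 1.42.0 and other filters, scalings and member rules were alternatives. The scripts were tested on simulated data. Confidence intervals for shares are exact at 95%.

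The AT2 rule, the gene lists and the comparisons were chosen with earlier results of these data known. Genes named are the 7 of the rule, the lists, the targeted genes, the 20 largest ratios with at least 20 counts in every animal, and the largest called differences above a log2 CPM of 3 on average. The planned list-sum and gene tests included the selecting genes, whose p-values are not given because the same counts chose the nuclei. Replicate numbers only name animals.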

Additional observations from a re-analysis of the deposited data

Results flagged for a closer look

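The genotype difference differed between AT2 and other nuclei for 2 genes by the interaction test in edgeR, which used a spread pooled over all genes. For Sox2ot the difference of log2 differences was 6.61 (edgeR adjusted p = 1.99e-09), with 421 of the 424 counts of RPC1 in 1 nucleus. For Kirrel3 it was -4.42 (edgeR adjusted p = 0.0197), with 25 AT2 counts in RP2 and 2 in RPC1. Neither passed without that RPC1 nucleus, where the values were 2.20 and -4.39 (edgeR adjusted p = 1 and 0.0635).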

How the results depend on the processing

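Against 2 genes called between the genotypes in AT2 nuclei, RLE scaling called 5, DESeq2 1, no filter on low counts 26, the replicate block 5, members with selecting genes at 0.5% or more 0, members without very deep nuclei 7, members without markers of other cell types 0, and members without the nucleus richest in Sox2ot (chosen after seeing the data) 5. Leaving out 1 animal gave 7 to 104. The replicate numbers are names only, and same-numbered animals deviated together with r = 0.069. Against 2 genes in the interaction, no filter called 1, DESeq2 0 and the fit without that nucleus 0, and leaving out 1 animal gave 0 to 52, with the median log2 difference moved to 0.57 without RP2. The share difference lay between -0.539 and 0.238 percentage points on leaving out 1 animal, and kept its sign in the 6 other settings run. In log2, leaving out 1 animal gave ranges that crossed 0 for the summed AT2 genes outside the rule (-0.0470 to 0.0150), lamellar body (-0.10 to 0.07), AT1 rule (-0.67 to 0.51), other AT1 (-0.0486 to 0.41), inflammatory (-0.70 to 0.28) and club genes (-0.0443 to 1.15). The sums of lipid synthesis, transitional, MHC class II, cell death, p53 target, proliferation and neuroendocrine genes kept their sign. Sftpa1 changed sign to 0.12 in DESeq2, 0.0950 without a filter, 0.14 with the replicate block, 0.0105 with at least 4 selecting genes and 0.0317 at 0.5%, and ranged from -0.41 to 1.02 on leaving out 1 animal. Sftpc ranged from -0.84 to 0.0508 and Kirrel3 from -13.96 to 7.27. Lars2 missed the threshold in 2 of 13 settings and Gm30835 in 2 of 11. The cause was not tested. The 18 nuclei of RP1 set the coarsest limit, 18.6 CPM per transcript.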
